A study of Gasterosteus aculeatus with 34 samples.

Results

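The genes described here are those that are scarce in the stickleback forebrain and far lower in the telencephalon than in the diencephalon. They are 181 of 20747 Ensembl-style gene identifiers, chosen by their measured values. A member had a mean of at least 2 and under 10 CPM (counts on the gene, scaled to 1000000 counts on all gene models of the library) over the diencephalon libraries. Its mean of log2(CPM + 0.1) was higher there by at least 2, which is 4-fold, than over the telencephalon libraries. The SD of that log2 value over the diencephalon libraries was under 1. The region difference, the diencephalon level and its SD are therefore given as a description, without a test.

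The fish were 17 male threespine sticklebacks (Gasterosteus aculeatus), each giving an RNA library from its telencephalon and one from its diencephalon. They were lab-reared F1 fish whose parents came from a wild population of the white ecotype. Each male had 8 trials, and brains were dissected 60 minutes after the last one, whose treatment defines the group. The control group met 2 empty flasks (4 males), the courtship group a gravid female in a flask (4 males), the challenge group a rival male in breeding colours in a flask (5 males), and the tradeoff group both at once (4 males). Every male had met all 4 treatments in the earlier trials, controls included, and the regions were measured as whole dissected tissue. The study asks how the forebrain answers a mating opportunity, a territorial rival, and a conflict between them.

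In a teleost brain the diencephalon holds the hypothalamus, the preoptic area as many authors divide it, the thalamus and the habenula. The hypothalamus and preoptic area contain small groups of neuroendocrine cells that make peptide hormones and steer feeding, stress, reproduction and social behaviour. The telencephalon lies in front of them and contains the pallium and subpallium, which take part in learning and in the evaluation of social stimuli. A transcript made by a small group of cells is diluted in RNA from a whole region, and fewer expressing cells cannot be told apart from less RNA per cell. None of the identifiers (0 of 22295) matched a gene in the reference table, so members are called by identifier, no role is given to any of them, and the region labels could not be checked against named marker genes.

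Gene models received 22802875 to 36656215 counts in a telencephalon library and 16522465 to 34384860 in a diencephalon library, with counting error the only error these totals describe. No library pair of a group agreed within sampling noise (56 pairs). A member had 9 to 493 counts in a diencephalon library, with a median of 93, and a median of 14 in a telencephalon library. The level of a median member carried a counting error of 10.4% in a diencephalon library of median depth. At the lower limit of 2 CPM, the shallowest diencephalon library gave 33.0 counts. No member (0 of 181) was at 0 in any diencephalon library.

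The members filled the allowed range of levels in the diencephalon and reached far down in the telencephalon. The diencephalon mean had a median of 4.21 CPM over members (quartiles 2.78 and 7.11), and 110 of the 181 lay under 5 CPM. All of them together made 771.9 to 979.1 CPM of a diencephalon library (median 901.4), which is 0.0772% to 0.0979% of its gene counts. In the telencephalon the mean of a member was 0.0363 to 4.59 CPM, with a median of 0.607. The log2 difference had a median of 2.64 (6.22-fold), quartiles of 2.28 and 3.56 and a highest value of 6.09 (67.9-fold). It lay between 2 and 3 in 106 members, between 3 and 4 in 43, between 4 and 5 in 23, and above 5 in 9. In all, 32 members were at 4 or more (16-fold).

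**Figure D1:**
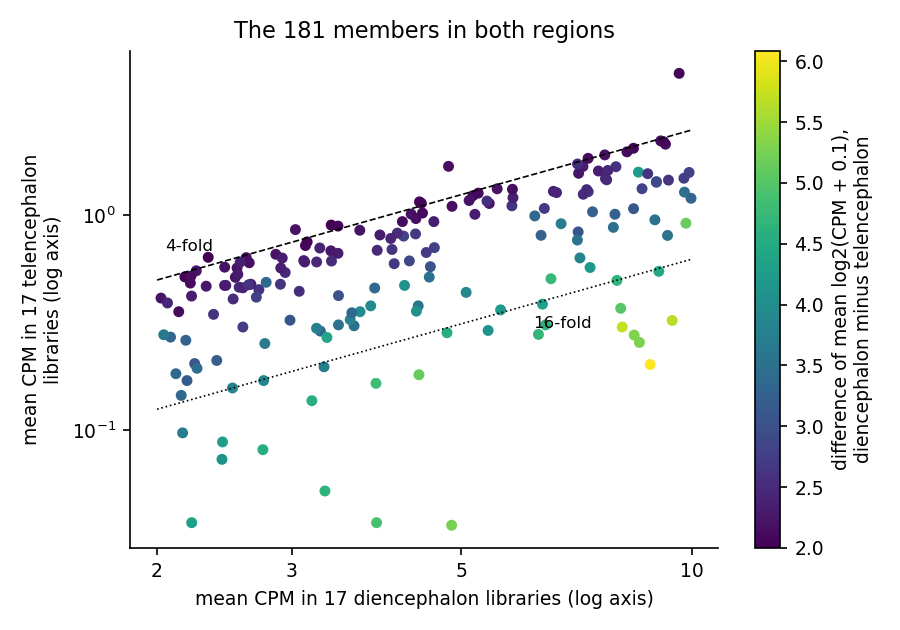
Each point is 1 of the 181 members, with its mean CPM over 17 diencephalon libraries on the x axis and over 17 telencephalon libraries on the y axis, both logarithmic, and the log2 difference as colour. The dashed and dotted lines mark 4-fold and 16-fold ratios of the means; a member can lie above the dashed line because the rule used means of log values, and the telencephalon means reach from 4.59 down to 0.0363 CPM.

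Most members were detected in the telencephalon too, at a low level. There, 119 members had counts in every library, 62 were at 0 in at least 1 library and 12 in at least 9 of the 17. A telencephalon library needs 0.0818 to 0.132 CPM to reach 3 counts, so values near 0.1 CPM rest on a few counts. The pseudocount of 0.1 CPM therefore limits how large a difference these members can show, and the difference is on the log2(CPM + 0.1) scale.

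ENSGACG00000017882 had the largest difference, 6.09. In the diencephalon it had a lowest value of 5.83, a median of 9.1 and a highest value of 12.0 CPM (17 libraries). In the telencephalon it was at 0 in 14 libraries, at 3.33 CPM in control male 304, and at no more than 0.0649 CPM in the remaining ones. The regions did not overlap, and 1 telencephalon library held nearly all of its telencephalon counts. ENSGACG00000009808 came next at 5.72. It ranged from 5.32 through a median of 7.18 to 14.2 CPM in the diencephalon. Its telencephalon libraries were at 0 in 10 cases, at 4.71 CPM in male 304, and at no more than 0.139 CPM in the others. Again the regions did not overlap and the same male stood apart.

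At the other end, ENSGACG00000012423 met the limit at 2.0 and the nearest gene outside stood at 1.998. Its diencephalon values ran from 0.545 through 2.31 to 3.79 CPM and its telencephalon values from 0.0358 through 0.496 to 2.24 CPM, the last in tradeoff male 321. The regions overlapped, and without male 304 its difference was 1.99. ENSGACG00000000327, at 2.02, ran from 2.43 through 3.22 to 4.28 CPM in the diencephalon and from 0.145 through 0.653 to 1.7 CPM in the telencephalon, with no overlap. Its small difference came with a tight spread in the diencephalon (SD 0.24 in log2). For the level, the members nearest the limits stood at 2.024 and 9.986 CPM and the genes just outside at 1.997 and 10.05 CPM. For the SD, the nearest member stood at 0.9903 and the nearest gene outside at 1.083; 5 genes met every other condition and were left out for their SD.

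The member with the highest telencephalon level of any library was ENSGACG00000014432. In the telencephalon it was at 0 in control male 307 and courtship male 320, had a median of 4.21 CPM and reached 11.4 CPM in control male 303. In the diencephalon it ran from 4.02 through 9.71 to 18.2 CPM. The regions overlapped widely, and the gene was higher in the diencephalon of 15 of the 17 males. Its 2.06 difference in mean log2 value came with telencephalon libraries that ranged from no count to the diencephalon median and above.

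Male by male, the region difference held for most members. Of the 181, 156 were higher in the diencephalon of each of the 17 males, 19 in 16 males, 5 in 15 and 1 in 14. Among all Ensembl-style genes 25.1% were higher in every male, and since the rule chose on this difference nothing is read from the contrast. Of 3077 comparisons of a member in a male, 3045 had the higher value in the diencephalon. The exceptions came from a few males. Challenge male 322 gave 12 and control male 304 gave 11 of them, challenge male 298 gave 3, males 303 and 329 gave 2 each, and males 299 and 308 gave 1 each. For 104 members every diencephalon library lay above every telencephalon library, against 9.69% of all Ensembl-style genes. Without male 304 this number was 142 (11.7% of all Ensembl-style genes), and without males 304 and 322 it was 161 (13.4%). The share of reads that fell on gene models was 39.78% to 46.27% in telencephalon and 57.81% to 61.5% in diencephalon libraries, and its part in the region difference was not tested. Scaling by TMM (trimmed mean of M values) factors moved the region difference of all genes of at least 1 CPM by -0.15 in log2 (median of 16267 genes, from 0.15 to 0.0). The members' median difference on that scale was 2.51.

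The telencephalon libraries of males 304 and 322 held far more of the members than the others. The members summed to 449.3 CPM in control male 304 and 260.8 CPM in challenge male 322, and to 81.7 to 172.9 CPM in the other 15 telencephalon libraries. Challenge male 298 had the highest of these 15. In the diencephalon the library of male 304 had the lowest sum of all, 771.9 CPM. With male 304 left out, 191 genes met the rule, 178 of them among the 181 members, and the members' median difference was 2.76. With both males left out, 204 genes met it, 177 of them members, and the median difference was 2.83.

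**Figure D2:**
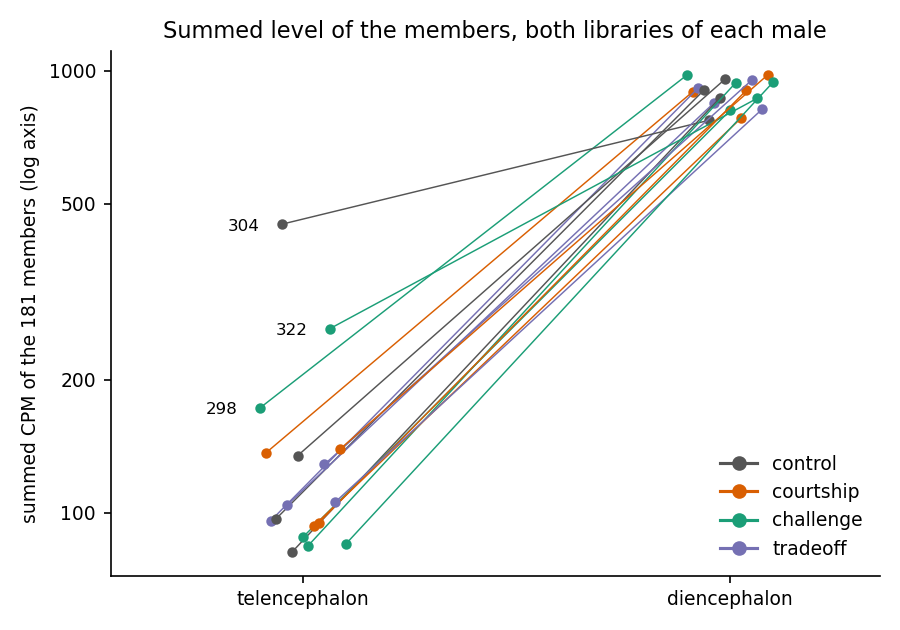
The y axis gives the summed CPM of the 181 members on a log scale in each of 34 libraries, and a line joins the telencephalon and diencephalon library of a male, coloured by treatment. The diencephalon libraries lie together between 771.9 and 979.1 CPM, while the telencephalon libraries of male 304 (449.3 CPM) and male 322 (260.8 CPM) lie above the other 15.

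The 2 libraries differed in which members they held. Each member's telencephalon CPM was expressed as a percentage of its own median over the diencephalon libraries. In male 304 this share had a median of 49.0% over members (quartiles 36.5% and 61.2%), and 179 of the 181 members were at 10% or more. In male 322 the median was 25.4% with wide quartiles of 6.38% and 44.9%. There, 38 members reached 50% or more while 54 were under 10%. The medians of the other 15 libraries were 6.43% to 17.1%. The shares ran from 7.93% to 178% in male 304 and from 0 to 108% in male 322, so that nearly every member was at 10% or more in the first library and a smaller number in the second.

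The members present in both libraries were many, but their shares were not ordered alike. In both males 88 members were at 25% or more, and 49 were at 25% or more in male 304 and under 10% in male 322. The reverse, at 25% or more in male 322 and under 10% in male 304, held for 0 members. Over the 181 members the shares in the 2 libraries had a Spearman correlation of 0.08, a description over genes of the same pair of libraries. Of all telencephalon libraries, that of male 304 was the highest for 111 members (61.3%) and that of male 322 for 38 (21.0%), with 10 in male 298. Among the 3456 other Ensembl-style genes with a diencephalon mean in the same range, these libraries were the highest for 10.6%, 8.39% and 10.4%. The 180 more abundant diencephalon-enriched genes, which meet the same rule at 10 CPM or more, were highest in male 304 in 140 cases and in male 322 in 29. Their median shares were 54.1% and 36.0%. Tissue or RNA of the diencephalon in these telencephalon libraries was not tested as a source.

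**Figure D3:**
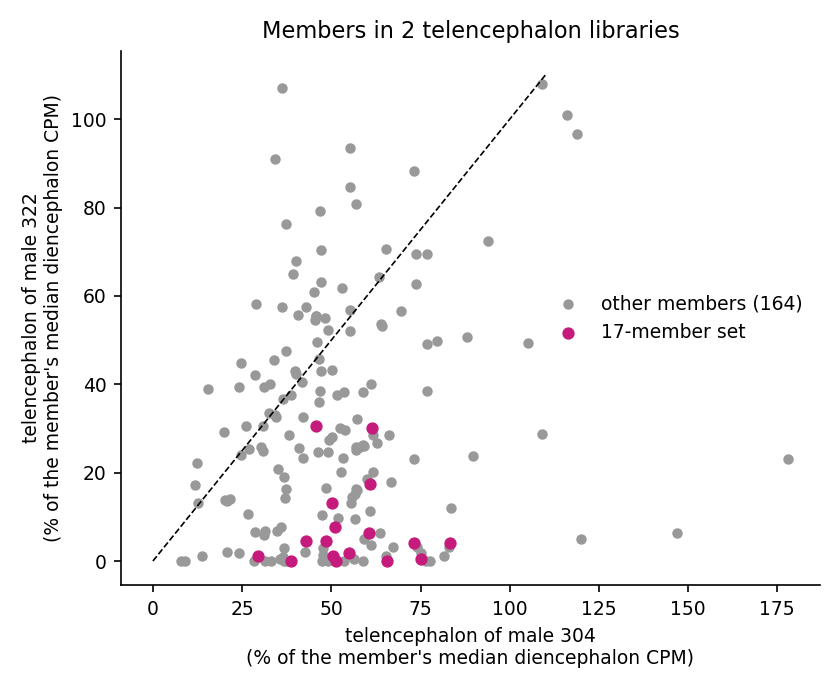
Each point is a member, placed by its CPM in the telencephalon of male 304 (x axis) and of male 322 (y axis), each as a percentage of the member's median diencephalon CPM; the dashed line marks equal shares. The 17 members of the largest co-varying set (coloured) lie between 29.4% and 83.2% on the x axis and between 0 and 30.6% on the y axis, and the other 164 are spread over both axes.

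Within the diencephalon most pairs of members were only weakly correlated over males, and the members' spread is given as a description. The SD of a member over the 17 libraries was 0.143 to 0.99 in log2, with a median of 0.342. Its variance over libraries was 1.15 to 46.7 times that of counting noise (median 5.29), and for 9 members it was under 2 times. The biological coefficient of variation that edgeR estimated in the diencephalon had a median of 0.22 over the members. It was 0.126 over all 18399 genes tested, most of them at other levels. No such value was computed for genes of like level, and the rule limited the members' SD, so nothing is read from this contrast. After subtraction of treatment means, the median Pearson r over the 16290 pairs of members was 0.084 in the diencephalon (17 libraries, shared by all pairs), beside 0.025 for the 3456 genes of like level and 0.141 for the abundant diencephalon-enriched genes. In the telencephalon it was 0.425, beside 0.03 and 0.653. Without males 304 and 322 the telencephalon value was 0.13 for the members, 0.028 for the genes of like level and 0.259 for the abundant ones, and it was 0.175 for the members without male 304 alone and 0.435 without male 322 alone. Most of the telencephalon value thus went with the library of male 304. The diencephalon value without them was 0.075.

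The pairs of members with the highest r over males in the diencephalon, after subtraction of treatment means, are given as a description. Of the 16290 pairs, 66 had an r of at least 0.8 and 2 had one of -0.8 or lower. No such share was computed for other genes, so nothing is read from these counts of member pairs. The most alike were ENSGACG00000008597 and ENSGACG00000010946, with an r of 0.95 and a Spearman rho of 0.87 over 17 diencephalon libraries. The r was 0.92 without the 2 libraries in which the deviation of ENSGACG00000008597 lay farthest from its median. ENSGACG00000008597 ran from 2.3 CPM in tradeoff male 306 through a median of 4.45 to 7.21 CPM in male 298. ENSGACG00000010946 ran from 2.36 CPM in challenge male 317 through 4.65 to 7.24 CPM in courtship male 329. Both were high in males 298 and 329, of different treatments. In the telencephalon the r of the same pair was 0.38.

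Members were grouped by average linkage on the r after subtraction of treatment means, with sets joined at a mean r of 0.5. This gave 52 sets, of which 9 held 1 member and 4 held at least 9. These sets were made from the values they describe and were not tested. The largest, with 17 members and led by ENSGACG00000008597, had a median r of 0.73. Its geometric mean in the diencephalon was 8.18 CPM in courtship male 329 and 8.1 CPM in challenge male 298, then 7.21 CPM in tradeoff male 321 and 6.82 CPM in control male 308. It was lowest in courtship male 319, at 3.2 CPM, and tradeoff male 306, at 3.24 CPM. High and low males occurred within the same treatments. Since the grouping used values less their treatment means, nothing is read from that.

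The same 17 members separated the telencephalon of male 304 from that of male 322. Their median share of the diencephalon level was 51.2% in male 304 (29.4% to 83.2%), and all 17 were highest in that library among the telencephalon libraries. In male 322 it was 4.14% (0 to 30.6%), against a median of 5.48% in the other telencephalon libraries. The geometric means of the set were 2.87 CPM in male 304 and 0.2 CPM in male 322. This set was near the level of the other telencephalon libraries in male 322, in a library that held other members at raised levels. The split was not particular to the set. Over all members, 49 were at 25% or more in male 304 and under 10% in male 322.

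Of the 3 other sets, those of 11 and 9 members were raised in both libraries, and that of 10 less evenly in male 322. The set of 11 members led by ENSGACG00000015259 (median r 0.6) had median shares of 48.3% in male 304 and 49.6% in male 322, against 11.5% in the other telencephalon libraries. In the diencephalon it was lowest in male 322, with a geometric mean of 4.88 CPM. The set of 9 led by ENSGACG00000019665 (median r 0.65) had shares of 47.1% and 43.0%, against 7.6%. Its diencephalon geometric mean was likewise lowest in male 322, at 4.48 CPM, and highest in challenge male 330, at 7.82 CPM. These 2 sets were therefore high in the telencephalon and low in the diencephalon of the same male. A low diencephalon value in male 322 was not particular to them. That library was the lowest for 32 of the 181 members and for 47 of the 180 abundant diencephalon-enriched genes, the most of any. It was the highest for 16 and 11 of them. The set of 10 led by ENSGACG00000018029 (median r 0.6) had shares of 37.7% and 21.4%, against 14.0%, and in male 322 its members ranged from 0.528% to 88.3%. Its diencephalon value was highest in male 322, at 6.93 CPM. The remaining 134 members had median shares of 48.2% and 25.1%.

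**Figure D4:**
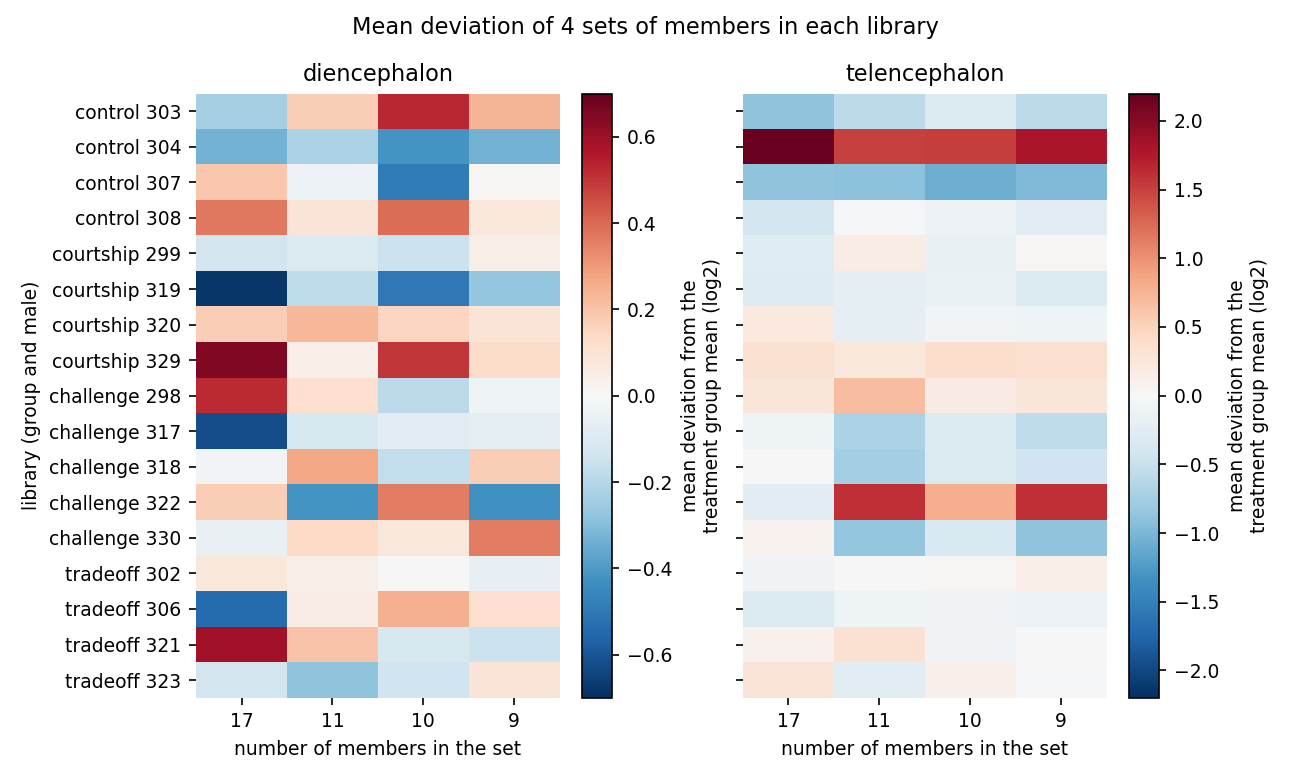
Rows are the 17 males by treatment and columns the 4 largest sets (17, 11, 10 and 9 members), and the colour is the mean deviation of a set's members from their treatment group mean, in log2, with a separate colour scale for each region. In the telencephalon male 304 is raised in all 4 sets, with geometric means of 2.87 and 2.9 CPM in the sets of 17 and 9, whereas male 322 is raised in the other sets and not in that of 17 members (0.2 CPM).

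The members' levels in the 2 regions of a male were weakly related over the 17 males. After subtraction of treatment means, the r between the regions over 17 males had a median of -0.008 over members (quartiles -0.228 and 0.21), and 14 members (7.73%) had an r of at least 0.5. For the 3456 genes of like diencephalon level the median was 0.342, with 32.7% at 0.5 or more. For the abundant diencephalon-enriched genes it was -0.146. Without males 304 and 322 the medians were 0.184, 0.394 and 0.294, and 28 members (15.5%) had an r of at least 0.5, against 38.4% of the genes of like level and 23.3% of the abundant ones. The members' telencephalon level was lower, with a median of their means of 0.61 CPM. It was 4.09 CPM for the genes of like level and 4.42 CPM for the abundant ones. The abundant ones too had a lower r than the genes of like level. Counting noise takes a larger part of the members' telencephalon values, and its part in their lower r was not tested.

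The treatment labels were not used to choose the members, and treatment was tested in each region. The SD limit spans the diencephalon libraries of all 4 treatments, so it also limits how far they can differ there. It left out 5 genes, and the tests in the diencephalon describe genes chosen under that limit. In the diencephalon no member was called as different between the 4 treatments (0 of 181 at an adjusted p under 0.05, edgeR quasi-likelihood test, 3 degrees of freedom). Of all 18399 genes 0.0% were called. At an unadjusted p under 0.05 there were 8 members (4.42%), against 2.72% of all genes. DESeq2 had 12 (3.32% of all genes) and called 0 members at an adjusted p under 0.05 (0.0374% of all genes), and limma voom had 9 (2.44% of all genes). With a male left out the edgeR count ran from 5 (without courtship male 299) to 14 (without male 298). The mean log2(CPM + 0.1) over members was 2.09 ± 0.13 in the control (SD, n = 4), 2.12 ± 0.13 in the courtship (n = 4), 2.13 ± 0.11 in the challenge (n = 5) and 2.09 ± 0.1 in the tradeoff group (n = 4). The group means differed by less than the spread between males.

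ENSGACG00000008727 had the lowest p of the members in the diencephalon (edgeR adjusted p = 1). The challenge males were at 2.32, 3.25, 2.54, 4.36 and 4.38 CPM. The control males were at 1.87, 1.43, 2.27 and 2.15 CPM, the courtship males at 2.17, 2.47, 2.16 and 2.49 CPM, and the tradeoff males at 1.41, 1.92, 2.08 and 1.44 CPM. Every challenge male lay above every control and every tradeoff male, and the challenge and courtship males overlapped. The group means were 1.93 ± 0.373 (control), 2.32 ± 0.182 (courtship), 3.37 ± 0.975 (challenge) and 1.71 ± 0.339 CPM (tradeoff; SD, n = 4, 4, 5 and 4). The log2 difference was 0.80 between challenge and control (SE 0.23) and -0.98 between tradeoff and challenge (SE 0.23). None of these passed the adjustment over all genes in edgeR, and the adjusted p in DESeq2 was 0.279.

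ENSGACG00000003511, the member nearest to the SD limit, came second (edgeR adjusted p = 1; DESeq2 adjusted p = 0.308). The control males were at 4.89, 0.884, 1.63 and 8.71 CPM and the tradeoff males at 4.73, 3.29, 1.4 and 1.06 CPM. The courtship males were at 1.01, 1.26, 0.844 and 1.27 CPM and the challenge males at 1.05, 1.11, 1.31, 0.666 and 1.19 CPM. The males above 3 CPM were 2 controls and 2 tradeoff males. Of the remaining males of those groups, the control at 0.884 and the tradeoff male at 1.06 CPM lay within the range of the courtship and challenge males, and those at 1.63 and 1.4 CPM lay above it. The log2 difference was -1.86 for courtship against control (SE 0.58) and -1.89 for challenge against control (SE 0.54). The same gene had the second lowest p of the members in the telencephalon (edgeR adjusted p = 1), at 0.686 ± 0.205 CPM in the control, 0.317 ± 0.076 in the courtship, 0.145 ± 0.133 in the challenge and 0.329 ± 0.0987 in the tradeoff group (SD, n = 4, 4, 5 and 4). Controls had the highest mean in both regions.

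The pairwise comparisons in the diencephalon likewise called 0 of 181 members each in edgeR, DESeq2 and limma voom, with 0.0% of all genes called in edgeR. That share was not computed for DESeq2, and for limma voom only in challenge against control (0.0%). A courtship opportunity against the control had 8 members at an unadjusted p under 0.05 (6 higher, 2 lower), with 2.34% of all genes past that value. A territorial challenge against the control had 4 (3 higher, 1 lower; 2.61% of all genes). That comparison had 2 in limma voom (2.37% of all genes) and 2 in a fit of those 2 groups alone (1.8% of all genes), and 9 without male 298 or 308, 8 without male 307 or 317 and 7 without male 303 or 318. The tradeoff against the control had 7 (6 higher, 1 lower; 3.14% of all genes), 11 without males 304 and 322 (4.23% of all genes), and 12, 13 and 11 without male 304, 321 or 323. The tradeoff had 11 against courtship (5 higher, 6 lower; 4.51% of all genes) and 12 against challenge (3 higher, 9 lower; 3.53% of all genes). The count against courtship was 17 without male 321. That against challenge was 19 without male 321, 7 without male 298 or 322 and 6 without male 306. Courtship against challenge had 12 (7 higher, 5 lower; 3.93% of all genes), with 5 without male 299 and 7 without male 322. The comparisons against the control share the control males. With a single male left out the share of all genes was not computed, so nothing is read from those counts.

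The intervals of the treatment differences in the diencephalon are given as a description. The rule had chosen the members with an SD under 1 over the diencephalon libraries. That limit restrains both the differences and the width of their intervals, so nothing is read from the shares or the SEs. The 95% interval of the log2 difference lay within 2-fold of no change for 153 members in courtship against control, 156 in challenge against control and 149 in tradeoff against control. These are 84.5%, 86.2% and 82.3% of the members, where 88.4%, 89.2% and 88% of all genes had such an interval. The median log2 difference over members was 0.05, 0.07 and -0.01 in the same order. A member's difference had a median SE of 0.22 to 0.23 in the 6 pairwise comparisons, while that of all genes was 0.12 to 0.13.

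In the telencephalon 142 of the members had enough counts to be tested and 39 did not. Again 0 were called (0.0% of all 18277 genes in edgeR). At an unadjusted p under 0.05 there were 9 (6.34% of those tested), against 2.49% of all genes, and 4 without males 304 and 322 (2.26% of all genes). The count was 27 of 155 members tested without control male 303, 29 of 154 without male 307 and 14 of 153 without male 308. The share of all genes was not computed for these fits, so nothing is read from the rise. DESeq2, run without the low-count filter, had 26 (3.38% of all genes) and called 0 members at an adjusted p under 0.05 (0.0109% of all genes). The limma voom test had 3 (2.69% of all genes). ENSGACG00000012513 had the lowest p (edgeR adjusted p = 1; DESeq2 adjusted p = 0.596). The tradeoff males were at 0.989, 0.489, 1.18 and 0.673 CPM and the control males at 1.36, 4.25, 1.98 and 1.89 CPM, so that these groups did not overlap, and 4.25 CPM belonged to male 304. The courtship males were at 2.07, 1.23, 1.22 and 2.2 CPM and the challenge males at 1.48, 1.26, 2.08, 1.31 and 1.09 CPM, between and across both. The summed CPM of the members was 191 ± 174 in the telencephalon of the control group (SD, n = 4), 116 ± 25.3 in the courtship (n = 4), 138 ± 78.2 in the challenge (n = 5) and 109 ± 14 in the tradeoff group (n = 4), and the wide spreads belong to the groups of males 304 and 322.

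**Figure D5:**
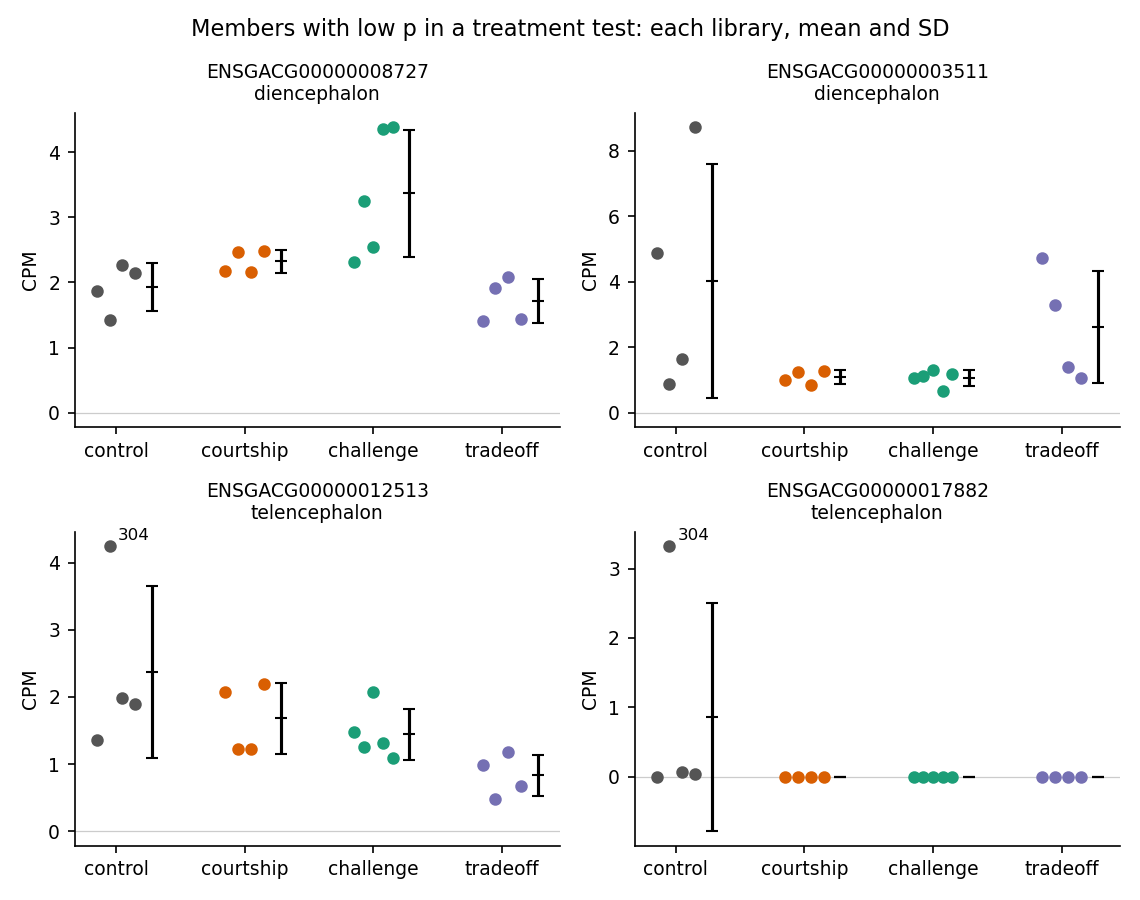
Each panel shows 1 member in 1 region, with CPM on the y axis from each male as a point by treatment, and the group mean with its SD as a bar beside the points. In ENSGACG00000008727 the challenge males reach 4.38 CPM; in ENSGACG00000003511 2 control and 2 tradeoff males lie above 3 CPM; in ENSGACG00000012513 and ENSGACG00000017882 male 304 (labelled) is the highest telencephalon library, at 4.25 and 3.33 CPM.

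Whether a treatment response differed between the regions was tested as an interaction over all 34 libraries. The main edgeR fit had no term for the male, so it did not pair the 2 regions of an animal. In edgeR 0 of 181 members were called (0.0% of all 18923 genes). All 181 members passed the low-count filter here through their diencephalon level. They include the 39 that did not pass it in the telencephalon alone. At an unadjusted p under 0.05 there were 37 members (20.4%), against 1.49% of all genes, and nothing is read from that contrast. This count moved with the male left out and with the handling of the male. Of the single males, control males 304 and 307 gave the lowest and the highest count. Without male 307 it was 52, where the share of all genes was not computed. Without male 304 it was 23 (1.28% of all genes), without males 304 and 322 it was 13 (1.09% of all genes), and with the male as a block in the fit, which pairs the 2 regions of each animal, it was 8 (2.44% of all genes). The limma voom test gave 8 (0.993% of all genes) and DESeq2 46 (1.75% of all genes).

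DESeq2 called 3 members in this interaction at an adjusted p under 0.05, with 0.0232% of all genes called, and each of the 3 was highest in the telencephalon of male 304. All 3 are among the 39 members that did not pass the low-count filter in the telencephalon alone. The DESeq2 fit also did not pair the 2 regions of a male, so nothing is read from these calls. ENSGACG00000001508 (DESeq2 adjusted p = 0.00833) had counts in 1 telencephalon library, that of male 304 at 1.38 CPM, and was at 0 in the other 16. ENSGACG00000003539 (DESeq2 adjusted p = 0.00833) was likewise at 0.637 CPM in male 304 and at 0 in 16 libraries. The third was ENSGACG00000017882 (DESeq2 adjusted p = 0.0215). The first 2 are named after their values were seen. In edgeR the lowest p of the members belonged to ENSGACG00000016453 (edgeR adjusted p = 1; DESeq2 adjusted p = 0.079). In the telencephalon it was at 4.0 CPM in male 304, at no more than 0.199 CPM in the other libraries and at 0 in 8 of them, and in the diencephalon it ran from 1.86 through 3.34 to 5.46 CPM. These members differed in 1 control library, and the other controls were near the level of the remaining groups.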

How the data were processed

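Libraries came from a stranded mRNA kit and a NovaSeq instrument, per the labels' protocols. The authors deposited raw read counts per gene model (22295 models), and the submitters' processing notes name STAR and HTSeq. Versions, genome build, annotation and strand setting are not given in the sources at hand, so reads of overlapping or antisense genes may not be told apart. The 5 HTSeq summary rows per file stayed out of library sizes and tests.

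CPM was computed from library totals, with 0.1 CPM added before log2. Treatments were tested on all gene models within a region, and the interaction over 34 libraries, with edgeR 4.0.16 in R 4.3.3 (TMM, filterByExpr, robust quasi-likelihood F test, Benjamini-Hochberg adjustment over all tested genes at 0.05). Each SE was computed as the log2 fold change over the root of its F value. Alternatives were DESeq2 1.42.0, limma 3.58.1 voom, no low-count filter, only the compared groups, the male as a block, each male left out, other pseudocounts and scalings. Leaving out males 304 and 322 together was chosen after seeing the data. The edgeR treatment tests within a region were also run on simulated counts with known changes in the tradeoff group. The interaction and the other tools were not run on such counts.

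Male numbers in the labels pair the regions, since both come from the same animal. Over genes of at least 1 CPM, the r between both libraries' deviations from their treatment means averaged 0.377 (0.004 in male 304 to 0.545; over 0.1 in 16 of 17 males). Chi-square per degree of freedom was 12.24 to 97.64 for the 56 pairs of libraries of a group. Nothing in the reference table of 52177 genes matched the identifiers. Members, sets and alternatives were chosen with earlier results of these data known. Named members are the 2 with the largest and the 2 with the smallest region difference, the 2 with the lowest p of each treatment test and of the interaction, the most correlated pair, and the one with the highest telencephalon value.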

Additional observations from a re-analysis of the deposited data

Results flagged for a closer look

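Libraries far from the rest of their treatment group were sought for the summed level, the 4 sets and the named members, in 128 combinations of measure and group. There were 15. About 1 in 20 would arise by chance for measures of normal spread picked blindly, and several of these were picked with such values in view. The rate does not hold for members near 0 in the telencephalon, where 1 count can set a library apart. In the telencephalon of control male 304 there were 7. The summed level of the members was 449.3 CPM there, against 81.7 to 135 CPM in the other controls. The geometric mean was 2.87 CPM for the set of 17 members (others 0.25 to 0.39) and 2.9 CPM for the set of 9 (0.34 to 0.63). Single members were at 2.44 CPM (ENSGACG00000008597; others 0.162 to 0.463), 4.71 CPM (ENSGACG00000009808; 0 to 0.0662), 4.0 CPM (ENSGACG00000016453; 0 to 0.199) and 3.33 CPM (ENSGACG00000017882; 0 to 0.0649).

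In the telencephalon of challenge male 322 there were 3. The set of 9 members had a geometric mean of 2.17 CPM (other challenge males 0.3 to 0.8). ENSGACG00000008727 was at 0.857 CPM (0.0399 to 0.234) and ENSGACG00000016453 at 0.163 CPM (0 to 0.0399), the latter from 4 counts.

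The other 5 lay elsewhere. ENSGACG00000012423 was at 1.87 CPM in the telencephalon of challenge male 298 (other challenge males 0.167 to 0.378). ENSGACG00000014432 was at 18.2 CPM in the diencephalon of challenge male 317 (6.84 to 10.1). The set of 10 members was at 0.54 CPM in the telencephalon of courtship male 329 (0.34 to 0.37). ENSGACG00000009808 was at 0.12 CPM in the telencephalon of male 298 (0 to 0.0315), from 3 counts. In the telencephalon of tradeoff male 302 it was at 0.0396 CPM (0 in the others), from 1 count.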

How the results depend on the processing

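The count of 0 called members held in each treatment comparison under every alternative run, with the exception of the interaction, where DESeq2 called 3. With the male as a replicate block the interaction again called 0 members in edgeR. The number of members depended on the pseudocount, since the telencephalon values are near it: 99 genes met the rule with 0.5 CPM added (97 of them members) and 46 with 1 CPM (all members). It was 161 with TMM scaling (156 shared), 164 with DESeq2 size factors (160 shared), and 176 to 197 with a male left out. The telencephalon correlation among members ran from 0.175 (without male 304) to 0.45 with a male left out and was 0.13 without males 304 and 322. Unadjusted counts moved with the male left out: 5 to 14 members for any treatment in the diencephalon, 7 to 29 in the telencephalon and 23 to 52 for the interaction. In the pairwise comparisons they ran from 6 to 10 (courtship against control), 4 to 9 (challenge against control), 6 to 13 (tradeoff against control), 9 to 17 (tradeoff against courtship), 6 to 19 (tradeoff against challenge) and 5 to 17 (courtship against challenge). The cause was not tested. Of the fits with a single male left out, the share of all genes was computed only for the interaction without male 304. In the telencephalon 39 members did not pass the low-count filter, at the low level there by which the members were chosen. A fit without the filter tested all 181 members and called 0. It had 24 at an unadjusted p under 0.05, against 9 of 142 in the main fit. The share of all genes without the filter was not computed.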
